A study of Mus musculus with 22 samples.

Results

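A set of 1109 genomic sites gained a peak of open chromatin in mouse macrophages given either lipopolysaccharide (LPS) or lactic acid (LA), and had no peak in untreated cells. Peaks of 12 ATAC-seq samples, which mark DNA that a transposase can reach, were merged wherever they shared at least 1 bp, and this gave 127890 sites. A site belonged to the set when it had a peak in 3 of 3 LPS samples, in 3 of 3 LA samples and in 0 of 3 control samples, which 0.867% of all sites did. The sites were thus chosen by the measured control, LPS and LA peaks, which are given below as a description, with no test. Of all sites, 8.27% had a peak in 3 of 3 LPS and 0 of 3 control samples, 1.53% in 3 of 3 LA and 0 of 3 control samples, and 8.11% in 3 of 3 LPS+LA and 0 of 3 control samples. The RNA was not used to choose them. LPS+LA peaks had no part in the rule, but they took part in the merging and so helped to set the bounds of the sites.

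The cells were bone marrow-derived macrophages of C57/BL6 mice, grown for 7 days with the supernatant of L929 cells and kept for 3 h in the conditions compared. The control received no agent, LPS was given at 100 ng/ml, and L-(+)-lactic acid was given with it at 10 mM. The concentration of LA given alone is not stated in the labels. ATAC-seq had 4 groups of 3 samples with 50000 cells each (control, LPS, LA and LPS+LA), and RNA-seq had 5 groups of 2 libraries (the same 4 and LPS+HCl, LPS medium acidified with hydrochloric acid, for which the labels give pH 6.5 as an example). The labels do not say whether replicates came from separate mice or cultures, so the spread behind every p-value may be technical and not that between animals.

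LPS is a cell wall component of Gram-negative bacteria that macrophages sense through the receptor TLR4, whose signals reach the transcription factors NF-kB, AP-1 and the interferon regulatory factors. Lactic acid is exported by glycolytic cells, carries a proton with it, and builds up in inflamed tissue and tumours. Open sites far from gene starts are often enhancers, where factors such as PU.1, C/EBP and AP-1 bind. AP-1 is a dimer of Fos, Jun and related proteins, which are made within minutes of many stimuli and of several kinds of stress. Cyclic AMP acts through CREB, a factor that binds a related motif (the cAMP response element, CRE).

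Because AP-1 is a target of many signals, the sequences shown here are those of promoters where such a site held the AP-1 motif TGANTCA in the stretch under the peak. Each runs 5′ to 3′ on the strand of the gene and ends at or before its annotated start (RefSeq, GRCm38.p6), and capitals mark the motif.
Olr1, chr6:129507169-129507275, minus strand: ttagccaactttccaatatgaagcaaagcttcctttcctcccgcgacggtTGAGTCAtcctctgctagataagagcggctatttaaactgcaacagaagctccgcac
Cd80, chr16:38458841-38458932, plus strand: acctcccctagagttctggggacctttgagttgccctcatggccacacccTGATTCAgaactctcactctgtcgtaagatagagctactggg
Sucnr1, chr3:60081660-60081766, plus strand: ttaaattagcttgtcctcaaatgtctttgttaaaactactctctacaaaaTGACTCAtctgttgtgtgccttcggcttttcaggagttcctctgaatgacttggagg
Cgref1, chr5:30945604-30945710, minus strand: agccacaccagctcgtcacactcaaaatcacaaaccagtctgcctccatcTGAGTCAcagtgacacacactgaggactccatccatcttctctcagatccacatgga
Atp6v0a1, chr11:101010237-101010343, plus strand: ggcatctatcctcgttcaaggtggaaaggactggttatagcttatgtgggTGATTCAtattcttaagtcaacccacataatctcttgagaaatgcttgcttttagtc
Gm16599, chr5:136392822-136392906, plus strand: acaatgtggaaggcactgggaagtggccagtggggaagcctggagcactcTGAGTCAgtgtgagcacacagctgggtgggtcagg

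The motif ended 53 bases before the annotated start of Olr1, a scavenger receptor for oxidised lipoprotein. In Olr1 it also lay inside the bounds of the gene, which reach 129507350, upstream of that start. The motif ended 35 bases before the start of Cd80, a ligand that costimulates T cells. It ended 152 bases before the start of Sucnr1, the receptor for succinate, 173 before that of Cgref1, a secreted EF-hand protein, and 104 before that of Atp6v0a1, a subunit of the proton pump that acidifies vesicles. Gm16599 is a predicted gene whose start lies inside Cux1, and there the motif ended 28 bases upstream. These 6 promoters are examples of a minority, since most of the sites lay far from any gene start.

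Nearly all of the 1109 sites were also open when LPS and LA were given together. A peak was present in 3 of 3 LPS+LA samples at 1093 sites (98.6%, exact 95% binomial interval 97.7% to 99.2% over sites, as a description), in 2 of 3 at 13, in 1 of 3 at 1 and in 0 of 3 at 2. Over all 127890 sites, 60.7% had a peak in 3 of 3 LPS+LA samples. By sample, 1093, 1106 and 1107 of the sites had a peak, which is 98.6%, 99.7% and 99.8% of them and 99.4% ± 0.704 (SD, n = 3).

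Of the sites that opened with 1 of the agents and not the other, smaller shares had a peak under both together, in 3 of 3 samples. Of 7975 sites with a peak in 3 of 3 LPS, 0 of 3 LA and 0 of 3 control samples, 47%, 65.6% and 65.8% had a peak in the 3 LPS+LA samples (59.5% ± 10.8), and 2064 of them (25.9%) had none in any. Of 441 sites with a peak in 3 of 3 LA, 0 of 3 LPS and 0 of 3 control samples, 72.6%, 83.9% and 84.1% had one (80.2% ± 6.61), and 49 (11.1%) had none. Within a sample, the share was higher at the 1109 sites than at the LPS-only sites by 51.6, 34.1 and 34.1 percentage points and than at the LA-only sites by 26, 15.8 and 15.7 points. The difference had the same sign in 3 of 3 samples in each case. The two-sided exact sign-flip permutation test gave p = 0.25 for each, the smallest value that 3 samples allow. The test decides little, because the rule that chose the sets itself favours this sign. LPS-only sites had no peak in the LA samples, which shared LA and the sequencing lane with LPS+LA. LA-only sites had none in the LPS samples, which shared LPS with it. LPS+LA replicate 1, with 85571 peaks against 99435 and 99416 in the other samples of its group, had the lowest share in each set.

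**Figure D1:**
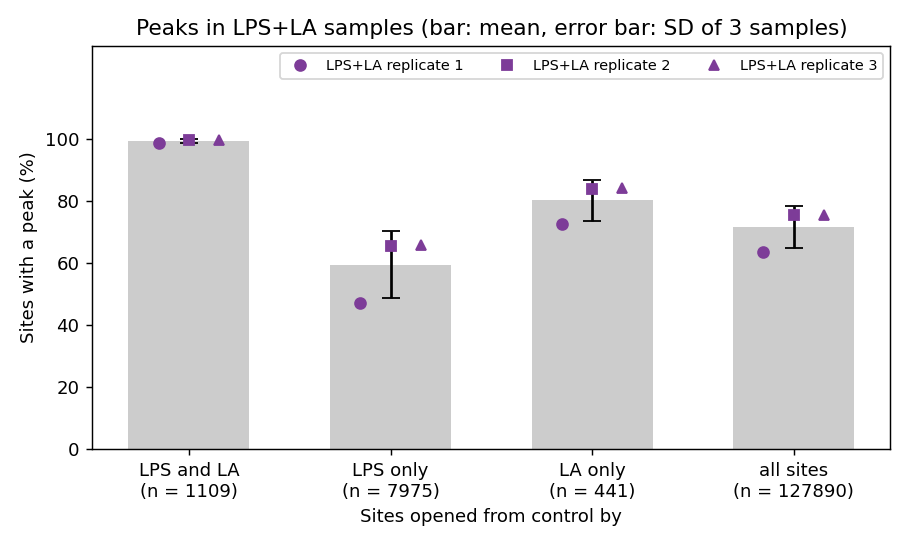
Share of sites (%) with a peak in each LPS+LA sample, for sites opened by both agents, by LPS only, by LA only, and for all merged sites. Points are the 3 samples, bars their mean and error bars the SD. The sites opened by both agents sit between 98.6% and 99.8%, above each sample's share in the other sets.

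The sequencing lane in the file headers was shared by control and LPS samples, and another lane by LA and LPS+LA samples, so the lane and LA cannot be told apart. Peak numbers ran from 76680 to 100667 per sample. They were 76680 to 80820 in LA and 80386 to 86566 in control, which overlap, and 88807 to 100667 in LPS. A peak list holds no read counts, so a site with no peak may still have reads below the caller's threshold.

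The peaks were weak with either agent alone and ranked higher under both. The authors' deposited score served to rank peaks within a sample, after each list was cut to its 76680 best peaks so that lists of equal length were compared. A site whose peak fell outside the cut was entered at percentile 0 and not dropped. After the cut 945, 951 and 959 of the 1109 sites kept a peak in LPS, 1109, 1059 and 1071 in LA, and 1076, 1087 and 1088 in LPS+LA. Median score percentiles of the sites were 27.2, 28.4 and 29.1 in the LPS samples, 28.6, 24.1 and 24.8 in the LA samples, and 49.1, 49.4 and 47.7 in the LPS+LA samples. The LPS+LA medians lay above those of all 6 samples with 1 agent. Among the 1093 sites with a peak in all 9 of these samples, 675 (61.8%) ranked higher in every LPS+LA sample than in every LPS sample, where 20.9% of all sites with such peaks did, and 65 (5.95%) showed the reverse, where 22.2% of all did. Against LA, 763 (69.8%) ranked higher in every LPS+LA sample, where 17.8% of all did, and 18 (1.65%) ranked lower in every one, where 27.4% did. In 527 sites (48.2%, against 7.02% over all sites) every LPS+LA sample ranked above all 6 others. The LPS and LA ranks come from samples that chose the sites, so these orders are a description.

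Sites open with each agent alone but not in the other set moved differently. In LPS+LA the median percentiles of LPS-only sites were 17.8, 9.71 and 10, over the 3748, 5233 and 5244 sites with a peak there. Only 3056, 3339 and 3351 of these kept a peak after the cut, and the rest lower the medians. These medians were near or below the 17.3 to 18.4 of the LPS samples. Those covered all 7975 sites, of which 6150, 6183 and 6199 kept a peak. The medians of LA-only sites were 22.9, 18.7 and 16.9 in LPS+LA (320, 370 and 371 sites), beside 19 to 24 in the LA samples (441 sites). In the deposited lists LA-only sites ranked higher under both, at 30.9, 37.3 and 35.9 in LPS+LA beside 24, 25.2 and 21.3 in LA. LPS-only sites had 26.4, 30.4 and 30.6 in LPS+LA there, beside 37.9, 33.3 and 28.6 in LPS.

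Most sites close to the edge of the rule also had a peak in LPS+LA. With peaks in all LPS and all LA samples, 730 further sites had a peak in 1 of 3 control samples, 1235 in 2 of 3 and 57842 in 3 of 3. Their median percentiles in LPS+LA were 42.3, 38 and 61, beside 48.8 for the 1109 sites, and in LPS 27.2, 26.5 and 60.2, beside 28.4. A peak in 3 of 3 LPS+LA samples was present at 95.1%, 91.2% and 97% of them. Where control had a peak in 1 of 3 samples, that peak's median percentile was 9.7 in the deposited lists. On the other edge, 208 sites lacked a peak in 1 of the 3 LPS samples, and 580 and 915 sites lacked it in 1 or 2 of the 3 LA samples. These had a peak in 3 of 3 LPS+LA samples in 90.9%, 91.2% and 79%.

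**Figure D2:**
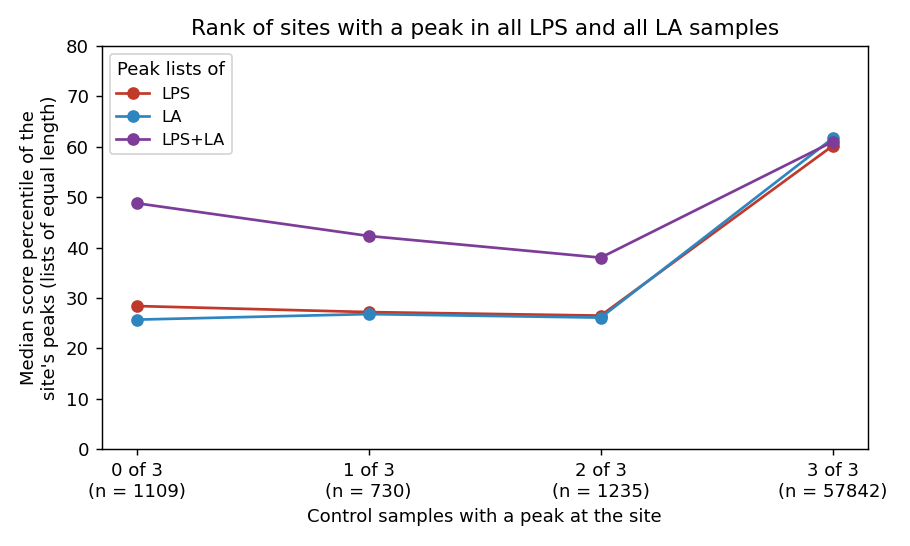
Median score percentile (0 to 100, lists of equal length) of sites with a peak in all LPS and all LA samples, by the number of control samples with a peak, for the LPS, LA and LPS+LA lists. Sites whose peak fell outside the equal-length cut are entered at 0. At 0 of 3 control samples (n = 1109) LPS+LA stands at 48.8 while LPS and LA stand at 28.4 and 25.7. At 3 of 3 (n = 57842) the 3 lie between 60.2 and 61.7.

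Recovery in samples left out of the rule, though not out of the merging, was high for LPS, lower for LA, and not complete for the control. When the rule was applied to 2 samples of each group and the sample with the remaining number was set aside, 1768, 1485 and 1856 sites were chosen. Of these, 98%, 94.5% and 88% had a peak in the LPS sample set aside and 83%, 86.1% and 84.3% in the LA sample. In the control sample set aside, 23.8%, 8.48% and 20.3% had a peak. The lowest of these shares was that of control replicate 2, which has 80386 peaks against 86537 and 86566. A peak in 3 of 3 LPS+LA samples was present in 95.5%, 96.6% and 95.4%.

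The sites were short and scattered. Median width was 421 bp, beside 428 bp over all sites (interquartile range 372 to 492, from 233 to 1183), and the 6 LPS and LA peaks shared a common stretch at 1095 sites (median 188 bp), while at 14 they shared none. Median peak width was 323 bp in LPS, 250 bp in LA and 352 bp in LPS+LA. Only 45 sites had another within 10 kb, and the median distance to the nearest other was 354082 bp. Chromosome 2 held 99 (8.93%, against 8.13% of all sites), chromosome 11 held 81, chromosome 3 held 75 and X held 21 (1.89%, against 2.56%), with 0 on Y.

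Few lay at promoters. A RefSeq promoter window (250 bases before to 50 after a gene's start) was overlapped by 19 of the 1072 sites on chromosomes with such windows (1.77%), against 9.24% of all sites, 1.05% of LPS-only and 0.922% of LA-only sites. The median distance to the nearest start was 20040 bp, beside 17504 bp over all sites, 37 sites (3.45%, against 11.5%) lay within 1 kb, and 736 (68.7%, against 64.3%) lay more than 10 kb away. In all, 624 (56.3%, against 58.3% of all sites) were counted as within the bounds of a protein-coding gene. The gene table used here does not separate exons from introns.

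The strongest sites of the set were distal. By median score percentile in LPS+LA, 4 of the leading 5 are given here, on chromosomes 1, 2 and 10. In deposited lists the same rank from the top has a higher percentile where the list is longer. The LA lists were shorter than those of LPS and LPS+LA. One at chr1:105984090-105984505, 5885 bp from Zcchc2, ranked at 74.7, 76 and 81.4 in LPS, 54, 67.2 and 62.5 in LA, and 95.1, 94.5 and 95.2 in LPS+LA (percentiles of the deposited lists, here and below), so every LPS+LA sample was above every other. At chr10:19045948-19046455, 30538 bp from Tnfaip3, the percentiles were 90.7, 90.6 and 86.7 in LPS, 58, 57.8 and 59.3 in LA and 93.8, 93.5 and 90 in LPS+LA. LPS and LPS+LA overlapped there. At chr1:180303517-180304065, 26325 bp from Itpkb, an inositol trisphosphate kinase, they were 89.6, 89.6 and 90.7 in LPS, 36.7, 46.2 and 42.6 in LA and 87.4, 90.8 and 91.6 in LPS+LA. At chr2:30924941-30925532, in the bounds of Ptges, they were 84.5, 86.5 and 85.9 in LPS, 61.9, 62.9 and 64.2 in LA and 91, 90.1 and 89.3 in LPS+LA, with LPS+LA above the other groups and no overlap.

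In 2 sites no LPS+LA sample had a peak. The site at chr11:97993873-97994223, in Arl5c, ranked at 16.1, 8.78 and 21.7 in LPS, below the medians of the set (44.6, 41.8 and 38.7), and 31.3, 40.3 and 15.5 in LA, above the medians in 2 of 3 samples (28.6, 28 and 26.9). That at chr19:46819225-46819525, in Cnnm2, a magnesium transporter family member, ranked at 0.942, 22.5 and 15.1 in LPS and 0.573, 7.59 and 0.799 in LA, below the medians in all 6 samples.

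At the few promoters the AP-1 motif was common. Of the 22 promoter windows that these sites overlapped, 14 (63.6%) held TGANTCA on either strand, beside 19 of 89 windows (21.3%) at LPS-only sites, 0 of 4 at LA-only sites, 5.97% of windows at any site and 7.81% of all 32851 windows. The 22 windows belong to 19 sites, because 3 sites touch more than 1 window. Counted per site and only within the stretch that site and window share, 10 of 19 (52.6%) held it, beside 18 of 81 (22.2%) at LPS-only sites and 6.39% at any site.

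Other motifs searched on both strands were less frequent in these windows. The C/EBP motif TTGCNNAA was in 4 (18.2%, against 16.9% at LPS-only sites and 10.8% of all windows), and it overlapped the AP-1 motif in the window of 1700012B09Rik. The PU.1 motif GAGGAAGT was in 2 (9.09%, against 3.2% of all). No window held the CRE TGACGTCA (1.79% of all windows), the NF-kB motif (GGGA and TTCC with any 2 bases between, 1.47%) or the interferon response element (GAAA repeated with any 2 bases between, 3.44% of all and 14.6% at LPS-only sites). A match is a string of letters and no measure of binding, 22 windows are few, and the sequence of the distal sites was not analysed here.

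**Figure D3:**
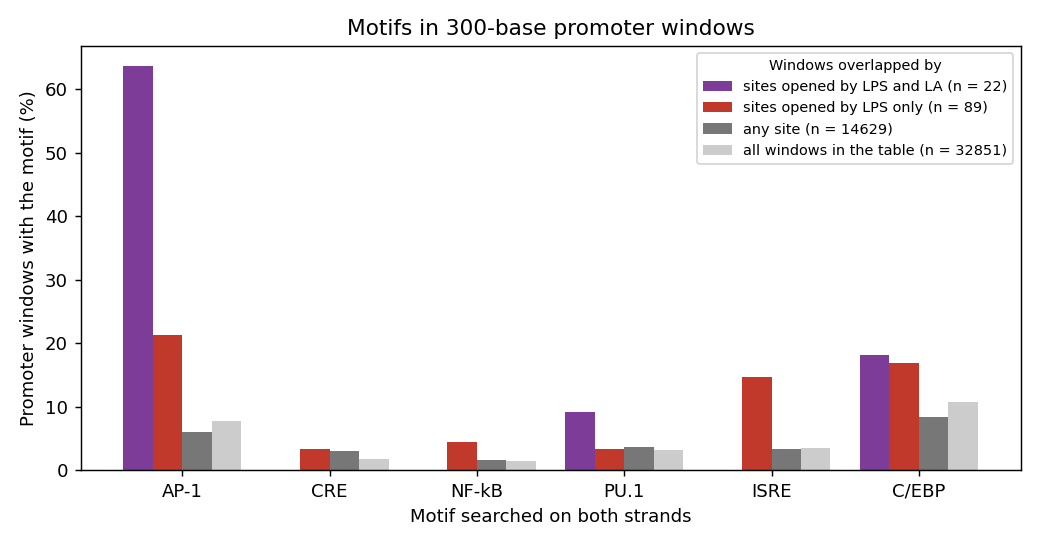
Share (%) of 300-base promoter windows that hold each of 6 motifs on either strand, for windows overlapped by sites opened by both agents (n = 22), by LPS-only sites (n = 89), by any site (n = 14629) and for all windows (n = 32851). AP-1 stands at 63.6% in the first set and between 5.97% and 21.3% in the rest.

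RNA was read in 10 libraries of 18668648 to 20219888 expected counts, and 12213 genes had enough to be tested. Levels are CPM, counts scaled to the size of the library by TMM, edgeR's trimmed mean of M-values. Differences are log2 fold changes with their standard error (SE) from edgeR's quasi-likelihood test, called at a Benjamini-Hochberg adjusted p of at most 0.05. The 20 macrophage identity markers summed to 16349.8 to 22015 CPM. Of 12 neuron markers, all in the table, the sum was 32.6 CPM in control replicate 1 and 47.4 in LPS+HCl replicate 2, beside 3.6 to 8.51 in the other libraries. Markers of T, B and natural killer cells summed to at most 6.67 CPM, of neutrophils and mast cells to 3.37 and of erythroid cells to 0.994. The 7 fibroblast markers summed to 11.3 and 10.6 in LPS and to at most 3.48 elsewhere, and Pdgfrb gave 10.4 and 10.1 of the LPS sums. In such bulk RNA, fewer cells of a type and less RNA per cell cannot be told apart.

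Genes within 50 kb of the sites were called higher in a larger share than all tested genes in each of the 6 contrasts, by a small margin in some. Of the 1109 sites, 913 had a tested gene within 50 kb of its bounds, and these were 1540 genes. With LPS against control, 588 (38.2%) rose and 475 (30.8%) fell, where 32.4% of all tested genes rose and 32.4% fell. With LA against control, 364 (23.6%) rose and 287 (18.6%) fell, where 20.4% and 17.9% of all did. These comparisons share the 2 control libraries. With LPS+LA against control, 500 (32.5%) rose and 362 (23.5%) fell, where 26.4% and 24.9% of all did, so the shares that fell with LPS and with LPS+LA were below those of all genes. Without both libraries that held neuron transcripts, 535 of 1522 near genes (35.2%) rose and 423 (27.8%) fell with LPS, where 29.4% and 28% of all did. With LA 251 (16.5%) rose and 213 (14%) fell, where 13.6% and 12.2% did, and with LPS+LA 422 (27.7%) rose and 278 (18.3%) fell, where 21.5% and 18.8% did.

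Between LPS+LA and LPS the share called higher near the sites was close to that of all genes. The share called lower near the sites was above that of all genes, most so within 10 kb. Against LPS, 473 genes (30.7%) were higher and 515 (33.4%) lower, where 29.2% and 29.7% of all were. Against LA, 346 (22.5%) were higher and 232 (15.1%) lower, where 15.9% and 14.6% were. LPS+HCl against LPS gave 337 (21.9%) higher and 355 (23.1%) lower, where 18% and 20.8% were. Within 10 kb of the bounds there were 751 genes, of which 327 (43.5%) rose and 224 (29.8%) fell with LPS. With LA 172 (22.9%) rose and 166 (22.1%) fell. In LPS+LA against LPS 218 (29%, below the 29.2% of all genes) were higher and 300 (39.9%, above the 29.7% of all) lower.

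TMM scaling moved these splits. When libraries were scaled by total count alone, the median of all genes shifted by -0.72 in LPS against control, -0.11 in LA against control, -0.32 in LPS+LA against control, 0.4 in LPS+LA against LPS, -0.21 in LPS+LA against LA and 0.24 in LPS+HCl against LPS (log2). Near the sites, 18.7% then rose and 64.6% fell with LPS (14.4% and 67.9% of all genes), 16.9% rose and 26.6% fell with LA (14.1% and 25.1%), and 19.2% rose and 44.3% fell with LPS+LA (14% and 46.9%). LPS+LA against LPS gave 51.5% higher and 20.8% lower (50.8% and 16.6%), LPS+LA against LA 15.3% and 34.4% (10.6% and 34.9%), and LPS+HCl against LPS 41.6% and 12.9% (37.1% and 10.7%).

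**Figure D4:**
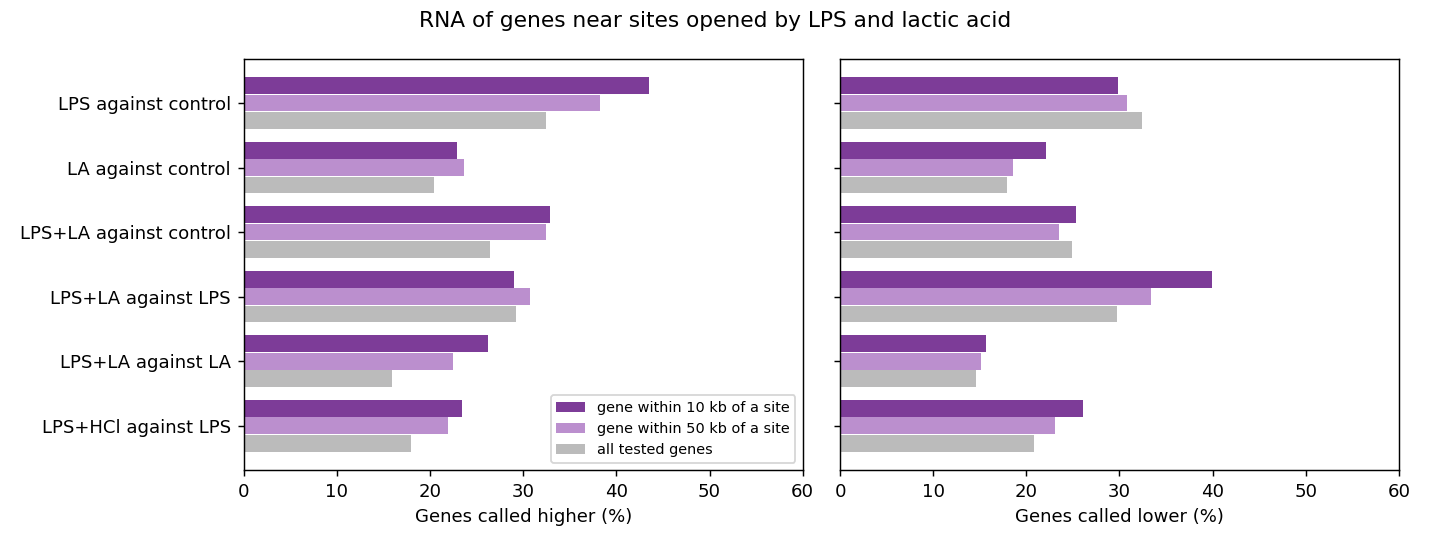
Genes called higher (left) and lower (right), in % of the genes within 10 kb (n = 751) or 50 kb (n = 1540) of a site and of all 12213 tested genes, in 6 contrasts. With LPS against control 43.5% and 38.2% of the near genes rose, beside 32.4% of all. With LA against control the shares were 22.9% and 23.6%, beside 20.4%.

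Of the genes whose promoter window held a site, 6 could be tested. Olr1 rose with each agent and was higher still with both. Its level was 0.283 and 0.0802 CPM in control, 12.2 and 11.8 in LPS, 3.82 and 3.71 in LA, 17.1 and 19.3 in LPS+LA, and 64.5 and 72.2 in LPS+HCl, and no libraries of different groups overlapped. The log2 fold change was 6.01 ± 0.28 (SE, edgeR adjusted p = 3.37e-15) for LPS against control, 4.33 ± 0.34 (adjusted p = 6.85e-10) for LA against control and 0.60 ± 0.14 (adjusted p = 0.00106) for LPS+LA against LPS. Its site, at chr6:129507006-129507650, ranked at 64.1, 62.1 and 56.8 in LPS, 45, 42.4 and 50.9 in LA and 70.4, 76.3 and 73.7 in LPS+LA. This is the order of the 3 groups in the RNA, but these lists differ in length and the order in equal lists is not given.

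Cd80 had 9.22 and 7.06 CPM in control, 37.3 and 37.1 in LPS, 13.7 and 18.5 in LA, and 20.6 and 21.1 in LPS+LA. It rose by 2.19 ± 0.15 with LPS (edgeR adjusted p = 4.81e-12) and 0.98 ± 0.15 with LA (adjusted p = 2.24e-05), and was lower with both than with LPS, by -0.84 ± 0.14 (adjusted p = 1.79e-05). Its site ranked at 53, 63 and 48.7 in LPS, 35.1, 37.3 and 34.9 in LA, and 60.2, 60.2 and 63.6 in LPS+LA. Atp6v0a1 had 520 and 550 CPM in control, 571 and 599 in LPS, 356 and 363 in LA, and 375 and 362 in LPS+LA, a change of 0.13 ± 0.06 with LPS (adjusted p = 0.0817, which passed at 0.17 with DESeq2 size factors, 0.026, and with the DESeq2 test, 0.00862) and -0.57 ± 0.06 with LA (adjusted p = 2.63e-07).

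The other 3 gave low or falling values. Utrn, which encodes the dystrophin-related protein utrophin, changed by 0.04 ± 0.10 with LPS (edgeR adjusted p = 0.717) and fell by 0.35 with LA (adjusted p = 0.00794, and 0.0601 without control replicate 2). Plekha8, a lipid transfer protein, fell by 0.41 with LPS (adjusted p = 0.0241, and 0.141, 0.0677 and 0.132 without control replicate 1 or either LPS library) and changed by 0.00 ± 0.15 with LA (adjusted p = 0.989). Myo7a, a myosin, had 83.2 and 95.6 CPM in control, 30.7 and 29.2 in LPS, 67.6 and 65.3 in LA and 66.9 and 63.1 in LPS+LA, and fell with LPS (-1.58) and with LA (-0.43). By total-count scaling the LPS values of Utrn and Atp6v0a1 turned to -0.68 and -0.59.

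The secreted cytokines near the sites were Lif, Osm and Csf1, and 3 of 3 rose with each agent, where 20 of the 20 tested members of the whole list rose with LPS and 9 with LA. Lif, a cytokine of the interleukin-6 family, had 0 and 0.0802 CPM in control, 1.43 and 2.38 in LPS, 1.27 and 1.16 in LA, 25 and 22 in LPS+LA, and 6.18 and 10 in LPS+HCl. The control held 2 counts, so the ratio to it was 47.2 in LPS (exact 95% interval 12.5 to 399, counting error only) and 30.4 in LA (8.01 to 257). Against each agent alone, LPS+LA was higher by 3.63 ± 0.28 (LPS, edgeR adjusted p = 1.14e-10) and 4.27 ± 0.28 (LA, adjusted p = 1.68e-11) on the log2 scale, and its libraries overlapped with no other group.

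Osm, oncostatin M of the same family and Lif's neighbour, had 4.65 and 5.69 CPM in control, 18.2 and 19 in LPS, 20.5 and 21.6 in LA, and 13.3 and 9.43 in LPS+LA. It rose by 1.84 ± 0.18 with LPS and 2.02 ± 0.17 with LA, and was lower with both than with LPS, by -0.71 ± 0.17 (edgeR adjusted p = 0.000793), a call lost by total-count scaling (-0.31, 0.107). Lif and Osm share their nearest site, chr11:4223967-4224656, which lies 32912 bp from Lif and 12129 bp from Osm. It ranked at 10.3, 16.2 and 14 in LPS, 33, 38.8 and 24.5 in LA, and 48.8, 47.5 and 48 in LPS+LA. Csf1, the macrophage growth factor, with 2 sites, had 17.3 and 19.4 CPM in control, 1264 and 1224 in LPS, 36 and 36.1 in LA and 237 and 222 in LPS+LA. Its changes were 6.08 ± 0.09 with LPS, 0.97 ± 0.08 with LA, and -2.44 ± 0.07 in LPS+LA against LPS.

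Of chemokines, 3 of the 17 tested had a site near, and 3 of 3 rose with LPS and 1 with LA, beside 16 and 3 of the whole list. All 3 were lower in LPS+LA than in LPS. Ccl22, which draws cells bearing CCR4, had 1.94 and 2.73 CPM in control, 932 and 840 in LPS, 4.53 and 3.08 in LA and 105 and 81.3 in LPS+LA. Its LA value was 0.70 ± 0.26 (edgeR adjusted p = 0.0507) and did not pass, though it passed in 8 alternatives, among them the DESeq2 test (0.0268), no filter on low counts (0.000349) and the fit without LA replicate 2 (0.95, adjusted p = 0.0178). Cx3cl1, the ligand of CX3CR1, changed by 5.69 ± 0.14 with LPS and 0.42 ± 0.16 with LA (adjusted p = 0.0386), and the LA call was lost without control replicate 2 (0.29) or LA replicate 2 (0.28) and by total-count scaling. Ccl22 and Cx3cl1 share the site at chr8:94755962-94756705. Cxcl3, a neutrophil attractant, had 0.121 and 0.12 CPM in control, 404 and 349 in LPS, 0 and 0.759 in LA, and 6.53 and 7.74 in LPS+LA, which is -5.72 ± 0.24 in LPS+LA against LPS.

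NF-kB subunits and their feedback inhibitors near the sites rose with LPS, and split with LA. Of 6 near genes, 6 rose with LPS, 2 rose and 2 fell with LA, and 6 were lower in LPS+LA than in LPS, where of the 28 in the list 28 rose with LPS, 20 rose and 3 fell with LA, and 26 were lower in LPS+LA than in LPS. Tnfaip3, the deubiquitinase A20 that shuts NF-kB signalling down, had 25.9 and 24.7 CPM in control, 2390 and 2457 in LPS, 39 and 38.9 in LA, and 873 and 1023 in LPS+LA. It rose by 6.58 ± 0.09 with LPS (edgeR adjusted p = 4.75e-25) and 0.62 ± 0.08 with LA (adjusted p = 2.75e-06). Rel, a subunit of NF-kB, rose by 4.13 ± 0.12 and 0.60 ± 0.12. Nfkb1 and Rela, which encode the p50 and p65 subunits, rose by 3.24 ± 0.07 and 1.75 ± 0.07 with LPS and fell with LA (-0.23 and -0.21). These LA falls lost their call without control replicate 2 or LA replicate 1. Bcl2a1b, an anti-apoptotic gene with close paralogs and therefore uncertain, and Irak3, an inhibitor of TLR signalling, rose with LPS by 3.16 ± 0.08 and 1.59 ± 0.09 and had LA values of -0.17 ± 0.08 and -0.16 ± 0.09 that did not pass. Without LA replicate 2 the LA value of Bcl2a1b was -0.29. With total-count scaling 2 of the 6 rose and 4 fell with LA.

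**Figure D5:**
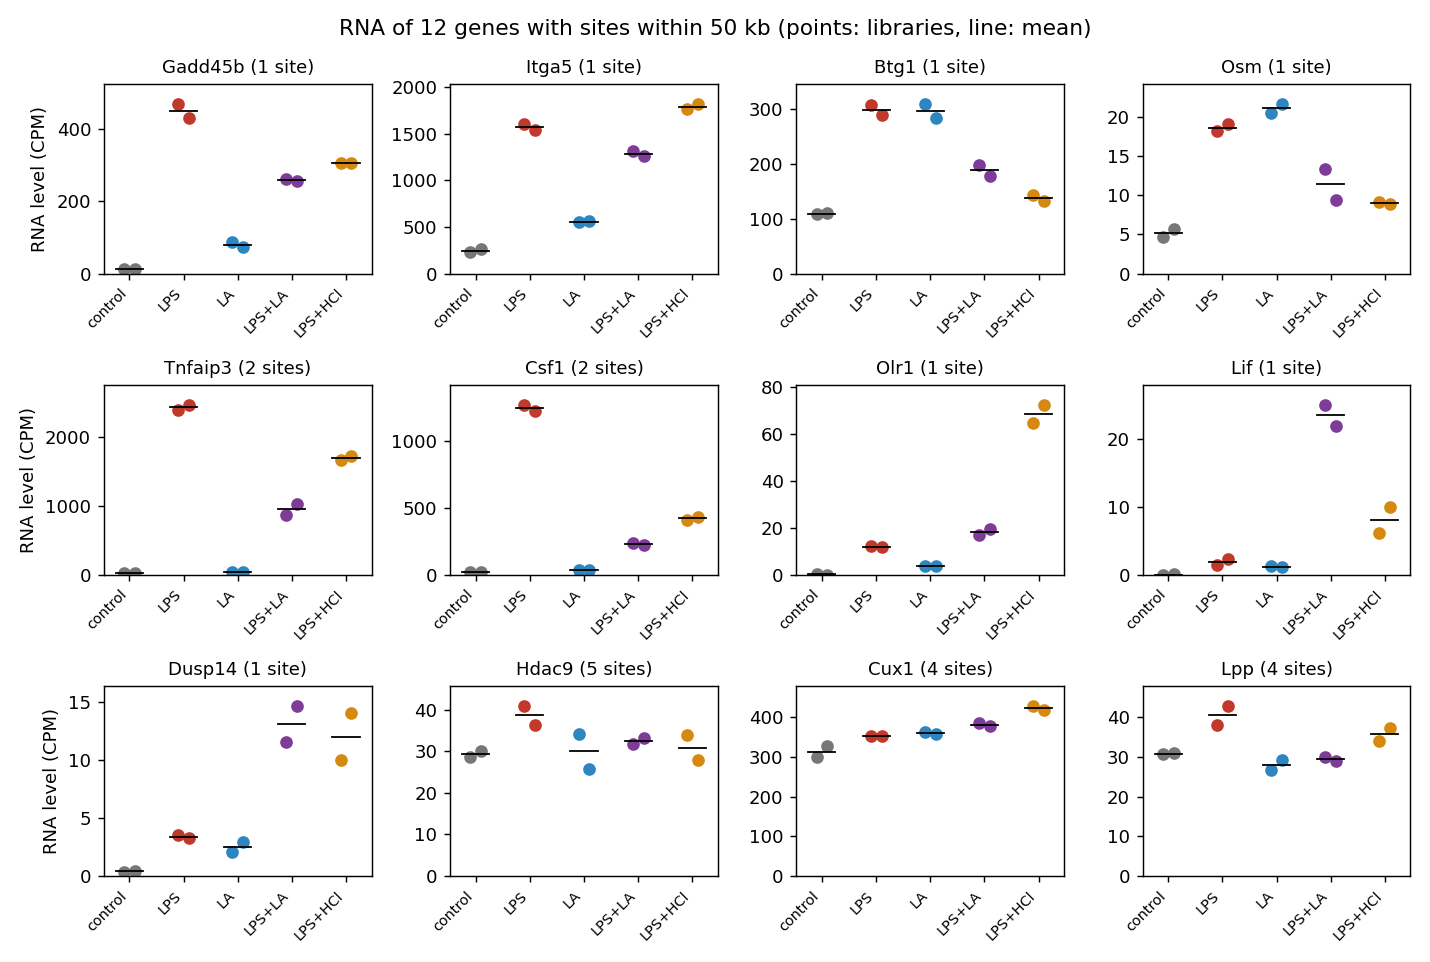
RNA level (CPM) of 12 genes with a site within 50 kb, in 5 groups. Points are the 2 libraries of a group, lines their mean, and each panel has its own linear axis from 0. Tnfaip3 runs from 24.7 in control to 2457 in LPS, while Lif has its highest values, 25 and 22, in LPS+LA.

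Immediate early genes, which carry the first response to a stimulus, were called with each agent, though not all upward. Near the sites, 4 of 5 rose and 1 fell with LPS, and 4 rose and 1 fell with LA, beside 13 and 9, and 17 and 3, of the 24 listed. Ier2 had 18.5 and 19.2 CPM in control, 50 and 49.8 in LPS, 52 and 54.7 in LA, and 29.4 and 40.1 in LPS+LA, a rise of 1.4 ± 0.12 and 1.5 ± 0.12 and a difference of -0.52 ± 0.12 of LPS+LA from LPS, which lost its call by total-count scaling (-0.12). Egr2, a zinc finger factor, had 2.47 and 2.17 CPM in control, 17.7 and 14.7 in LPS, 5.05 and 5.85 in LA and 15.6 and 14.1 in LPS+LA, so LPS and LPS+LA overlapped. The related factor Egr1 rose by 1.95 ± 0.19 and 1.09 ± 0.19. Jun, a subunit of AP-1, had 181 and 205 CPM in control, 129 and 131 in LPS, 219 and 290 in LA, and 226 and 250 in LPS+LA. It fell by 0.57 with LPS (edgeR adjusted p = 0.000136) and rose by 0.40 ± 0.10 with LA (adjusted p = 0.00521). The LA rise of Jun lost its call without control replicate 1 (0.31) or LA replicate 2 (0.18). Klf6, a Krüppel-like factor, rose by 2.40 ± 0.07 with LPS and fell by 0.51 with LA.

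The MAP kinase phosphatases, which switch MAP kinases off, and the related genes of RNA decay were called mostly upward with LA. Of 5 near genes 3 rose and 1 fell with LPS, 4 rose with LA and none fell, and 4 were higher and 1 lower in LPS+LA than in LPS, beside 9 and 6, 14 and 1, and 11 and 4 of the 17 listed. Dusp5, a phosphatase of ERK, had 2.18 and 2 CPM in control, 8.16 and 9.65 in LPS, 30.3 and 33.3 in LA and 17.6 and 20 in LPS+LA, with no overlap between these groups. It rose by 2.09 ± 0.19 with LPS (edgeR adjusted p = 6.65e-10) and 3.92 ± 0.17 with LA (adjusted p = 1.33e-14). Dusp14 had 0.364 and 0.441 CPM in control, 3.5 and 3.24 in LPS, 2.06 and 2.95 in LA, and 11.5 and 14.6 in LPS+LA. LPS+LA was higher than LPS by 1.95 ± 0.24 and than LA by 2.38 ± 0.24 (adjusted p = 2.71e-07 and 2.44e-08). Its site, chr11:84055978-84056362 inside the gene, ranked at 37.6, 8.05 and 4.23 in LPS, 4.35, 14.6 and 5.13 in LA and 44.1, 62.9 and 53.9 in LPS+LA.

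Btg1, an antiproliferative adaptor of mRNA deadenylation, rose by the same log2 value with each agent. It had 108 and 111 CPM in control, 307 and 289 in LPS, 309 and 284 in LA, 198 and 178 in LPS+LA and 144 and 133 in LPS+HCl. Its log2 change was 1.44 ± 0.08 with LPS and 1.44 ± 0.08 with LA (edgeR adjusted p = 3.64e-14 and 6.78e-13), and LPS+LA was lower than LPS by -0.66 ± 0.08. Dusp6 fell by 3.08 with LPS and had an LA value of 0.08 ± 0.10 that did not pass. Dusp4 rose by 1.06 ± 0.12 with LA. Its LPS value of 0.25 ± 0.12 did not pass (adjusted p = 0.0869), passed without control replicate 2, LPS replicate 2 or LPS+LA replicate 2, and turned to -0.47 by total-count scaling.

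Of the cAMP and CREB targets 2 had a site near, Pde3b and Pde4d, both phosphodiesterases that break down cyclic AMP. Each fell with LPS, and 1 of 2 rose with LA, beside 6 higher and 10 lower with LPS and 14 higher and 1 lower with LA of the 17 tested. Pde3b had 21.1 and 18.2 CPM in control, 6.16 and 7 in LPS, 48 and 35.6 in LA, and 14.6 and 16.6 in LPS+LA. It fell by 1.58 with LPS and rose by 1.09 ± 0.16 with LA (edgeR adjusted p = 7.77e-07 and 3.29e-05). The site at chr7:114520122-114520614, in Pde3b, ranked at 66.3, 66.5 and 61 in LPS, 54.3, 58.8 and 61.2 in LA and 84.1, 83.1 and 84.7 in LPS+LA, so a gene that fell with LPS lay beside a site that gained a peak there. Pde4d fell by 1.98 with LPS and had an LA value of 0.69 ± 0.31 (adjusted p = 0.0818).

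In the prostanoid, matrix and adhesion list 6 of 22 genes had a site near. Of these 6 rose with LPS, 4 rose with LA and 6 were lower in LPS+LA than in LPS, beside 18, 12 and 15 of the list. Ptges, the inducible prostaglandin E synthase, with 2 sites in its bounds, had 0.768 and 1.4 CPM in control, 51.4 and 50.6 in LPS, 2.9 and 2.37 in LA, 43.6 and 40.4 in LPS+LA and 111 and 122 in LPS+HCl. It rose by 5.54 ± 0.17 with LPS and 1.27 ± 0.25 with LA (edgeR adjusted p = 5.86e-19 and 0.000263). The LPS+LA value against LPS, -0.28 ± 0.11 (adjusted p = 0.0298), lost its call without either LPS library or LPS+LA replicate 2 and turned to 0.12 by total-count scaling. Ptger4, a receptor for prostaglandin E, rose by 2.45 ± 0.11 and 1.04 ± 0.11. Itga5, an integrin chain that binds fibronectin, had 230 and 260 CPM in control, 1604 and 1545 in LPS, 550 and 569 in LA and 1314 and 1263 in LPS+LA, and its difference of LPS+LA from LPS, -0.29 ± 0.07, turned to 0.11 by total-count scaling. The metalloproteinases Mmp12 and Mmp14 rose with LPS by 1.72 ± 0.13 and 4.59 ± 0.11. Their LA values of 0.14 ± 0.13 and 0.25 ± 0.12 did not pass, and that of Mmp14 was 0.40 without LA replicate 2. Cd44, a hyaluronan receptor, rose by 1.96 ± 0.07 with LPS, and its LA call (0.17 ± 0.06, adjusted p = 0.0397) was lost in 6 of 10 fits that left out a library, down to 0.11 without control replicate 2.

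Stress genes near the sites were Hif1a, the hypoxia factor, and Gadd45b, a stress sensor upstream of p38. Both rose with each agent, beside 12 higher and 9 lower with LPS and 13 higher and 5 lower with LA of the 26 listed. Gadd45b had 13 and 12.2 CPM in control, 469 and 429 in LPS, 86.3 and 72.3 in LA, and 263 and 257 in LPS+LA, with rises of 5.15 ± 0.10 and 2.65 ± 0.09 (edgeR adjusted p = 1.22e-22 and 6.14e-16). Hif1a had 107 and 100 CPM in control, 302 and 304 in LPS, 154 and 128 in LA, and 228 and 230 in LPS+LA, with rises of 1.55 ± 0.08 and 0.45 ± 0.08. The site 8371 bp from Hif1a, at chr12:73955925-73956428, ranked at 48.3, 45.7 and 46.2 in LPS, 51.6, 52.2 and 54.3 in LA and 78.8, 80.3 and 78.7 in LPS+LA, where LA lay above LPS.

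Interferon response genes near the sites followed LPS. Ifit1, Irf8 and Gbp5 all rose with LPS, 1 of 3 rose with LA, and 3 were lower in LPS+LA than in LPS, beside 30 higher with LPS, 5 higher and 5 lower with LA, and 30 lower in LPS+LA than in LPS of the 30 tested. Irf8, a factor of the myeloid lineage, had 95.6 and 102 CPM in control, 822 and 892 in LPS, 137 and 147 in LA, and 307 and 334 in LPS+LA. Gbp5, a guanylate-binding protein of inflammasome defence, had 2.02 and 2.49 CPM in control, 1768 and 1884 in LPS and 1.63 and 3.3 in LA, where control and LA overlapped. Ifit1, an RNA-binding antiviral effector, had an LA value of -0.22 ± 0.33 (edgeR adjusted p = 0.656), which became a call without LA replicate 2 (-0.87).

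Macrophage identity genes near the sites moved in both directions. Of 6, 2 rose and 3 fell with LPS, and 1 rose and 3 fell with LA, beside 9 and 8, and 7 and 5, of the 20 listed. Tlr4, the LPS receptor, had 108 and 96 CPM in control, 47.2 and 53.1 in LPS, 41.9 and 44.1 in LA, and 40.1 and 41.7 in LPS+LA. It fell by 1.02 with LPS and by 1.24 with LA (edgeR adjusted p = 1.09e-09 and 3.25e-10). Cx3cr1, the fractalkine receptor, fell by 1.75 with LPS and rose by 0.24 ± 0.07 with LA, a call lost without control replicate 1 or LA replicate 1 and by total-count scaling (0.13). Fcgr1, a high-affinity IgG receptor, and Itgam, an integrin chain of complement receptor 3, rose with LPS by 2.48 ± 0.14 and 0.27 ± 0.07, and Itgam turned to -0.45 by total-count scaling. Mrc1, the mannose receptor, fell by 0.65 with LA. Its LPS fall (-0.25, adjusted p = 0.0488) was lost in 5 of 10 fits that left out a library. Csf1r, the receptor for Csf1, changed by -0.07 ± 0.06 with LPS, and its LA call (-0.16, adjusted p = 0.044) was lost in 9 of 10.

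The genes with the most sites were not those with the largest changes. Sites were counted over the gene bounds and 50 kb on each side, so long genes cover more sequence. The counts were not set against gene length or against all sites there. Of the 1540 near genes, 1372 had 1 site within 50 kb, 143 had 2, 21 had 3, 3 had 4 and 1 had 5. Hdac9, a class IIa histone deacetylase, held 5 sites in its bounds. It had 28.6 and 30.1 CPM in control, 40.8 and 36.4 in LPS, 34.2 and 25.8 in LA, and 31.7 and 33.2 in LPS+LA, a rise of 0.40 with LPS (edgeR adjusted p = 0.0086) and 0.03 with LA. Its LPS call was lost without control replicate 1 (0.36) or LPS replicate 1 (0.31), and total-count scaling turned it to -0.32. Lpp, a focal adhesion protein, Cux1, a homeobox factor, and Vmp1, a membrane protein of autophagy, had 4 sites each. Lpp had LPS and LA values of 0.39 and -0.14, Cux1 of 0.16 and 0.19, and Vmp1 of 0.81 and 0.45, of which those of Lpp and Cux1 with LPS turned to -0.33 and -0.56 by total-count scaling and lost their call without 1 or more single libraries. The LPS call of Vmp1 was lost by total-count scaling (0.09), and the LA call of Cux1 by that scaling (0.09) and without control replicate 1 (0.13) or LA replicate 1 (0.18).

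Among the genes with 3 sites, Creb5, a CRE-binding factor, rose by 2.34 with LPS and 0.30 with LA, the latter lost without control replicate 2 (0.23) and by total-count scaling (0.19). Cnnm2 went opposite ways, with 15 and 15.1 CPM in control, 3.11 and 3.77 in LPS, 36.9 and 35.2 in LA and 15.8 and 17.5 in LPS+LA, which is a fall by 2.13 with LPS and a rise of 1.26 with LA. Blmh, bleomycin hydrolase, rose by 0.54 with LPS (-0.18 by total-count scaling) and had 0.05 with LA. Antxr2, an anthrax toxin receptor, passed in neither.

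The largest changes near the sites were of LPS genes. Nos2, the inducible nitric oxide synthase, had 0 and 0.0401 CPM in control, 1832 and 1936 in LPS, 0.176 and 0.268 in LA, 13 and 21.3 in LPS+LA, and 505 and 484 in LPS+HCl. The control held 1 count, so the ratio was 93700.4 in LPS (exact 95% interval 16817 to 3701035) and 11 in LA (1.57 to 479), both for counting error only. The LA value did not pass (edgeR adjusted p = 0.163), and passed with no filter on low counts (0.00967) and without either LPS+LA library (0.00841 and 0.00833). Sele, E-selectin, had no count in control or LA and 28.2 and 29.1 CPM in LPS, which, with 3 counts taken as the floor of the control group, is at least 475-fold higher. Its level in LPS+LA was 1.18 and 0.527 CPM, and its site had a peak in 2 of 3 LPS+LA samples.

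Other genes fell with LPS and had LA values near or above control, and lay 20088 to 39451 bp from a site that gained a peak with each agent. Cd300lb, an activating receptor of myeloid cells, had 150 and 148 CPM in control, 1.81 and 2.38 in LPS, 160 and 173 in LA, and 62.9 and 63.8 in LPS+LA. Lyl1, a blood cell transcription factor, had 106 and 115 CPM in control, 1.88 and 1.52 in LPS, 88.8 and 103 in LA and 65.2 and 68.4 in LPS+LA. Its LA value of -0.20 (edgeR adjusted p = 0.086) became a call by total-count scaling (-0.31) and without LA replicate 2 (-0.31). Lyl1 fell by 6.01 with LPS while Ier2, which shares its site at chr8:84680872-84681335, rose by 1.4. Sox4 had 9.78 and 10.9 CPM in control, 0.0648 and 0.264 in LPS, 21.8 and 18.5 in LA, and 9.21 and 8.06 in LPS+LA, and rose by 0.96 with LA. Lhfpl2 fell by 5.04 with LPS, and Rtn4rl1, a relative of the Nogo receptor, fell by 5.16. Their LA rises of 0.37 and 0.68 lost their call without LA replicate 1 (0.23) and control replicate 1 (0.64).

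The largest LA rises near the sites, beside Lif, Olr1 and Dusp5, were of the heat shock genes Hspa1a and Hspa1b, near-identical copies whose reads the counting may have split. Hspa1a had 1.37 and 1.52 CPM in control, 45.2 and 43.2 in LPS, 132 and 480 in LA, and 560 and 569 in LPS+LA, so the LA libraries differed widely. Without both libraries that held neuron transcripts the LA calls of Hspa1a and Hspa1b were lost. Their log2 values there were 7.64 and 6.37, beside 7.71 and 6.40 with all libraries.

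The largest LA falls were of receptors and a small set of others. Ptafr, the receptor for platelet-activating factor, had 118 and 127 CPM in control, 217 and 217 in LPS, 31.2 and 35.8 in LA and 183 and 192 in LPS+LA, a rise of 0.82 with LPS, lost by total-count scaling (0.10), and a fall by 1.87 with LA. P2ry13, a receptor for ADP, fell by 1.80 with LA and had 0.17 with LPS (edgeR adjusted p = 0.38), which turned to -0.55 by total-count scaling. Fgd4, an activator of the GTPase Cdc42, had 100 and 91 CPM in control, 16.8 and 17.4 in LPS, 30.1 and 25.8 in LA and 20.2 and 19.9 in LPS+LA, and so fell with each agent (-2.48 and -1.77). 9930111J21Rik2 rose by 3.27 with LPS and fell by 1.88 with LA. Pdgfrb, a receptor for platelet-derived growth factor, reached a mean of 10 CPM only in LPS (10.3). With the same floor for LA it was 3.02-fold lower there, which is no bound, because the 10 control counts carry counting error. It was called lower with LA on no count there against those 10. That call (edgeR adjusted p = 0.0332) was lost in 3 of 10 fits that left out a library, and the control had 0.0404 and 0.361 CPM, so that without control replicate 2 the fitted value went from -5.05 to -2.86 (adjusted p = 0.372).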

How the data were processed

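The labels gave the group of each ATAC-seq sample and each RNA library. The sites and the gene lists were chosen with earlier results of these data known, and lists and comparisons that show those results again are no independent support.

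For ATAC-seq the authors deposited, per sample, a list of peaks in which each peak carries a score. Peaks were called separately in each sample. The submitters' processing notes name MACS2 2.0.10, BWA 0.5.9, Picard and mm10 (GRCm38). The scale of the deposited score and any read shift for the cutting enzyme are not given in those sources, so scores served only to rank peaks within a sample. Peaks were merged in Python 3.11.15 (pandas 2.3.3, numpy 2.4.6, scipy 1.17.1, figures with matplotlib 3.10.9), and the share of sites per sample was compared by an exact sign-flip permutation test.

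For RNA the authors deposited expected counts, estimates that divide reads between similar genes, of which 6.07% were not whole, and these were rounded. The notes name HISAT, Bowtie2 and GRCm38.p6. The counting tool and the use of strand are not given in the sources used here. Genes passed edgeR's filterByExpr (minimum count 10, minimum total 15) in 12213 of 16059 cases. All 10 libraries entered a single model of group means (edgeR 4.0.16 in R 4.3.3, TMM, robust quasi-likelihood fit, Benjamini-Hochberg over all tested genes). The model was also tested on simulated counts, read out as LPS+LA against LPS (11904 genes). It recovered 40%, 68%, 88% and 90% of changes of log2 0.5, 1, 2 and 3, with 4.67% false calls. These shares hold for the simulated counts only. With 2 libraries a group the precision is limited, and each library was left out in turn.

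Gene bounds (12165 of the tested genes) came from RefSeq GRCm38.p6, and distances to starts and sequences from its 32851 promoter windows, which cover no gene of chromosome 18, where 37 of the sites lie. Genes were named by rule among those within 50 kb of a site and with at least 10 CPM in a group: the 8 with the most sites, the 5 largest rises and falls with each agent, and up to 3 of each list. The other members of the lists near a site and the promoter genes were named after their values were seen. Ranking in lists of equal length, distances to starts, motifs, the interaction test and the fit without both libraries that held neuron transcripts were added after seeing the data. Alternatives were DESeq2 1.42.0 (its test or its size factors), total-count scaling, no filter, a replicate block, other distances and other forms of the site rule. Replicate numbers did not pair the libraries (correlation of deviations -0.503 to 0.0495). A planned count of genes that rose with both agents is not given, because the comparisons share the control libraries. One of the sites that the rule names is not reported here.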

Additional observations from a re-analysis of the deposited data

Results flagged for a closer look

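The effect of LA on a gene can be measured without LPS (LA against control) and with it (LPS+LA against LPS). Of the 47 genes named by rule, 35 were picked out because these effects differed in edgeR's interaction test (Benjamini-Hochberg adjusted p at most 0.0433). The share of all tested genes that passed this test is not given. The 47 were in part named for large LPS or LA changes in the same libraries, so the counts here only describe them. Values are the log2 effect with LPS minus that without it.

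For 19 genes every library lay on opposite sides of its comparison group in the 2 settings, whether or not each effect alone passed the test. Of these 17 lay above control with LA alone and below LPS with LA on top of it: Btg1 (-2.10), Ccl22 (-3.95), Creb5 (-1.51), Csf1 (-3.41), Cx3cl1 (-3.08), Gadd45b (-3.44), Hif1a (-0.85), Ier2 (-2.02), Irf8 (-1.94), Itga5 (-1.48), Nos2 (-9.88), Osm (-2.73), Ptger4 (-1.86), Ptges (-1.55), Rel (-2.29), Tnfaip3 (-1.98) and Vmp1 (-0.73). The Nos2 value rests on 1 control count and is no bound. Fgd4 (2.00) and Lyl1 (5.49) lay below control with LA alone and above LPS with LA on top. The effects of LA alone on Nos2 (3.11, edgeR adjusted p = 0.163), Ccl22 (0.70, 0.0507) and Lyl1 (-0.20, 0.086) and of LA on top of LPS on Fgd4 (0.23, 0.109) did not pass the test. The sides rest on TMM scaling: by total-count scaling LPS+LA against LPS turned to 0.11 for Itga5 and 0.12 for Ptges and Vmp1, was -0.00 for Hif1a, and lost its call for Osm (-0.31) and Ier2 (-0.12).

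In 12 genes the direction was shared and the size differed. LA raised Dusp5 (-2.84), Olr1 (-3.73), Hspa1a (-4.04) and Hspa1b (-4.64) less on top of LPS, lowered Klf6 (-1.58) and Nfkb1 (-1.53) more, and lowered Ptafr (1.66) less, where the value with LPS turned to 0.19 by total-count scaling. Cd300lb (4.75), Cnnm2 (1.01), Lhfpl2 (3.16), Rtn4rl1 (3.16) and Sox4 (4.71), which each fell with LPS alone, had the larger increase with LA on top of LPS. The effect of LA alone on Cd300lb (0.16, edgeR adjusted p = 0.123) did not pass the test. That of LA on top of LPS on Hspa1b (1.76) lost its call in 8 of 10 fits that left out a library. Its values in these fits were 1.72 to 1.81. For Blmh (-0.56), Cxcl3 (-7.31), Egr2 (-1.36) and Gbp5 (-1.68) the libraries overlapped in 1 of the settings.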

How the results depend on the processing

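Of 312 recomputed values of counts and shares, 276 stayed close to the reported value and 36 moved, and most moves came from total-count scaling or from another distance, which changes the number of genes. Sites with peaks in at least 2 of 3 LPS and LA samples numbered 2097, with 92.9% in 3 of 3 LPS+LA samples and a mean share of 96.9%. Without peaks under the 25th percentile the share in 0 of 3 was 0%. Leaving out 1 sample gave 1109 to 1440 sites, shares of 97.3% to 99.7% in 3 of 3, and differences of 34.1 to 46.5 points from LPS-only and 15.8 to 25.7 from LA-only sites.

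With total-count scaling the genes near the sites that were higher and lower numbered 288 and 995 (LPS against control), 296 and 682 (LPS+LA against control), 793 and 320 (LPS+LA against LPS) and 641 and 199 (LPS+HCl against LPS), and 530 were lower in LPS+LA than in LA. Within 10 kb (751 genes) they numbered 327 and 224, 247 and 190, 218 and 300, and 176 and 196 in the same order, 172 and 166 with LA, and 197 and 118 in LPS+LA against LA. Within 100 kb (2382 genes), 734 fell with LPS (30.8%, against 32.4% of all genes), 596 rose with LA (25%, 20.4%), 754 rose and 547 fell with LPS+LA (31.7%, 26.4% and 23%, 24.9%), 752 were higher in LPS+LA than in LPS (31.6%, 29.2%), and 355 were lower in LPS+LA than in LA (14.9%, 14.6%). Leaving out 1 library gave 533 to 594 and 401 to 484 with LPS, 279 to 370 and 225 to 293 with LA, 432 to 518 and 290 to 371 with LPS+LA, 393 to 485 and 457 to 527 in LPS+LA against LPS, 301 to 348 and 188 to 230 in LPS+LA against LA, and 248 to 355 and 277 to 372 in LPS+HCl against LPS.

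For the replicate block the labels give only a shared number. With it 585 and 469 genes were called with LPS, 361 and 288 with LA, 502 and 356 with LPS+LA, 464 and 512 in LPS+LA against LPS, 340 and 234 in LPS+LA against LA, and 331 and 356 in LPS+HCl against LPS. The share of all tested genes called is not given for the block or for the fits that left out a library. These counts of near genes therefore do not show whether the shares near the sites still differed from those of all genes. Of the gene values, the block gained the LA call of Ccl22 (edgeR adjusted p = 0.0368) and lost the LPS call of Mrc1 (0.0734).

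Of 6624 recomputed values of 69 genes, 6335 kept their call or stayed uncalled, 169 lost it and 91 gained it. Another 29 turned direction with a call in either fit, all 29 with total-count scaling, which shifts all genes. A change of sign with no call in either fit is among the 6335. LPS against control turned for Blmh (-0.18), Cux1 (-0.56), Hdac9 (-0.32), Lpp (-0.33), P2ry13 (-0.55), Dusp4 (-0.47), Itgam (-0.45), Utrn (-0.68) and Atp6v0a1 (-0.59), and LPS+LA against control for Blmh (-0.29), Cux1 (-0.04), Klf6 (-0.02), Irak3 (-0.09) and Jun (-0.01). LPS+LA against LPS turned for Antxr2, Itga5 and Tlr4 (each 0.11), Ptafr (0.19), Ptges and Vmp1 (each 0.12), Csf1r (0.33) and Itgam (0.01), LPS+LA against LA for Csf1r (-0.19), Itgam (-0.18) and Atp6v0a1 (-0.17), and LPS+HCl against LPS for Irf8 (0.19), Ptafr (0.20), Csf1r (0.07) and Itgam (0.03). The cause of other changes was not tested. Peak lists give no depth, so a missing peak sets no upper limit on openness.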

Other observations

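LPS+HCl was measured in RNA only and so has no open chromatin to set beside it. Against LPS it gave values of its own at several of the genes described. Olr1 was higher by 2.50 ± 0.14 (SE, edgeR adjusted p = 8.87e-13), Lif by 2.09 ± 0.29 (adjusted p = 4.47e-06), Dusp14 by 1.83 ± 0.25 (adjusted p = 1.90e-06) and Ptges by 1.19 ± 0.10 (adjusted p = 2.71e-09). Dusp5 was higher by 0.99 ± 0.15 and Pde3b by 0.83 ± 0.21. The Pde3b value was 0.50 without LPS+HCl replicate 2, which held neuron transcripts. Atp6v0a1 was lower by -1.22 ± 0.07, Csf1 by -1.56 ± 0.07, Cxcl3 by -2.59 ± 0.19 and Btg1 by -1.10 ± 0.08. Jun, with 135 and 138 CPM, gave 0.07 ± 0.11 (adjusted p = 0.648), and Irf8 gave -0.04 ± 0.07 (adjusted p = 0.671).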
